A study of Mus musculus with 9 samples.

Results

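The genes described here are 36 FoxO targets, growth arrest genes and autophagy genes, chosen by gene symbol, of which 35 had a probe set that belongs to no other gene, out of 22180 genes of which this holds. A gene with more than 1 probe set was represented by the one with the highest mean over the 9 arrays. The remaining gene, Gadd45a, shared its probe set with a neighbouring transcript and entered no comparison. Nothing was filtered for low signal, so all 35 genes were tested.

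The cells were N1E-115, which derive from a mouse neuroblastoma and serve as a model of neurite outgrowth, and their RNA was read on Affymetrix whole-transcript arrays, 3 for each of 3 groups. The groups were cells given siRNA against Hmgn5 and differentiated for 24 h, cells given control siRNA and differentiated for 24 h, and cells given control siRNA and differentiated for 4 h. Both siRNAs were used at 80 nM, the protocol naming a pooled reagent, and cells of all groups were starved overnight in a medium listed without serum and then replated on laminin; the medium after replating is not given. No Hmgn5 siRNA group at 4 h was analysed here. Since nothing in the labels says that the 3 samples of a group came from separate cultures, the p-values reflect only how far these samples differ, and that spread may be technical. The targeted gene, Hmgn5, a nucleosome-binding protein, stood at 3.49 ± 0.04 with Hmgn5 siRNA and 4.71 ± 0.06 with control siRNA at 24 h (log2, mean ± SD, n = 3 each; limma adjusted p = 0.00367), and at 4.44 ± 0.19 at 4 h. These are low signals in all 3 groups, below the array medians of 5.16 to 5.30 over all probe sets.

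FoxO proteins are transcription factors that insulin and growth factor signals hold in the cytoplasm through the kinase AKT. When those signals fade, FoxO proteins enter the nucleus and switch on genes that stop the cell cycle, defend against oxidants, promote autophagy and restore sensitivity to insulin. Since their activity is set mainly by phosphorylation and location, the transcripts of their targets are commonly read in place of the factors' own. Several of these targets, among them Cdkn1a, Ccng1, Bbc3, Sesn1 and Trp53inp1, are also targets of the tumour suppressor p53.

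The arrays ranged in median from 5.16 to 5.30 log2 units over all probe sets, and Pearson's r between arrays lay between 0.978 and 0.995. Control 4 h replicate 2 stood apart: limma gave it a weight of 0.198, and the remaining 8 arrays weights between 0.789 and 1.74. It was the lowest of the 3 arrays at 4 h for 24 of the 35 genes, against 36.3% of all genes. It was the highest for 6 of the 35, against 40.5% of all genes. Results over time are therefore given with and without it. Of 11 sympathetic neuroblastoma markers 9 were measured, and their signals exceeded those of 80.3% to 99.9% of genes, with Chgb, Chga and Tubb3 highest. Their mean level was 11.04 to 11.09 on Hmgn5 siRNA arrays, 11.06 to 11.13 on control 24 h arrays and 10.60 to 10.91 at 4 h, and 2 of the 9 changed over time. Whether that shift has a part in the results below was not tested. Markers of glia, fibroblasts, leukocytes and endothelium had median signal percentiles between 21.1 and 42.7, and none of them passed over time or at knockdown.

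Between 4 h and 24 h in control cells, 4 of the 35 genes rose, 1 fell and 30 did not pass the test (limma, adjusted p under 0.05 over 22180 genes). Over all genes 2.17% rose and 2.17% fell. The genes that rose were Ccng2, Trp53inp2, Insr and Sesn3, and the gene that fell was Cdkn1a. The largest change was the 2.36-fold rise of Ccng2. The difference was above 0 for 28 genes and below 0 for 7, with a median of 0.11 log2 units, against a median of 0.02 and 54.9% above 0 over all genes. For 13 of the 35 genes every 24 h array lay above every 4 h array, and for 1 every 24 h array lay below, where the shares over all genes were 11.3% and 9.98%. Without control 4 h replicate 2, 5 genes rose and 2 fell, with Pink1 added to the rises and Gadd45g to the falls. The median was then 0.09, and 2.64% of all genes rose and 2.94% fell.

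**Figure D1:**
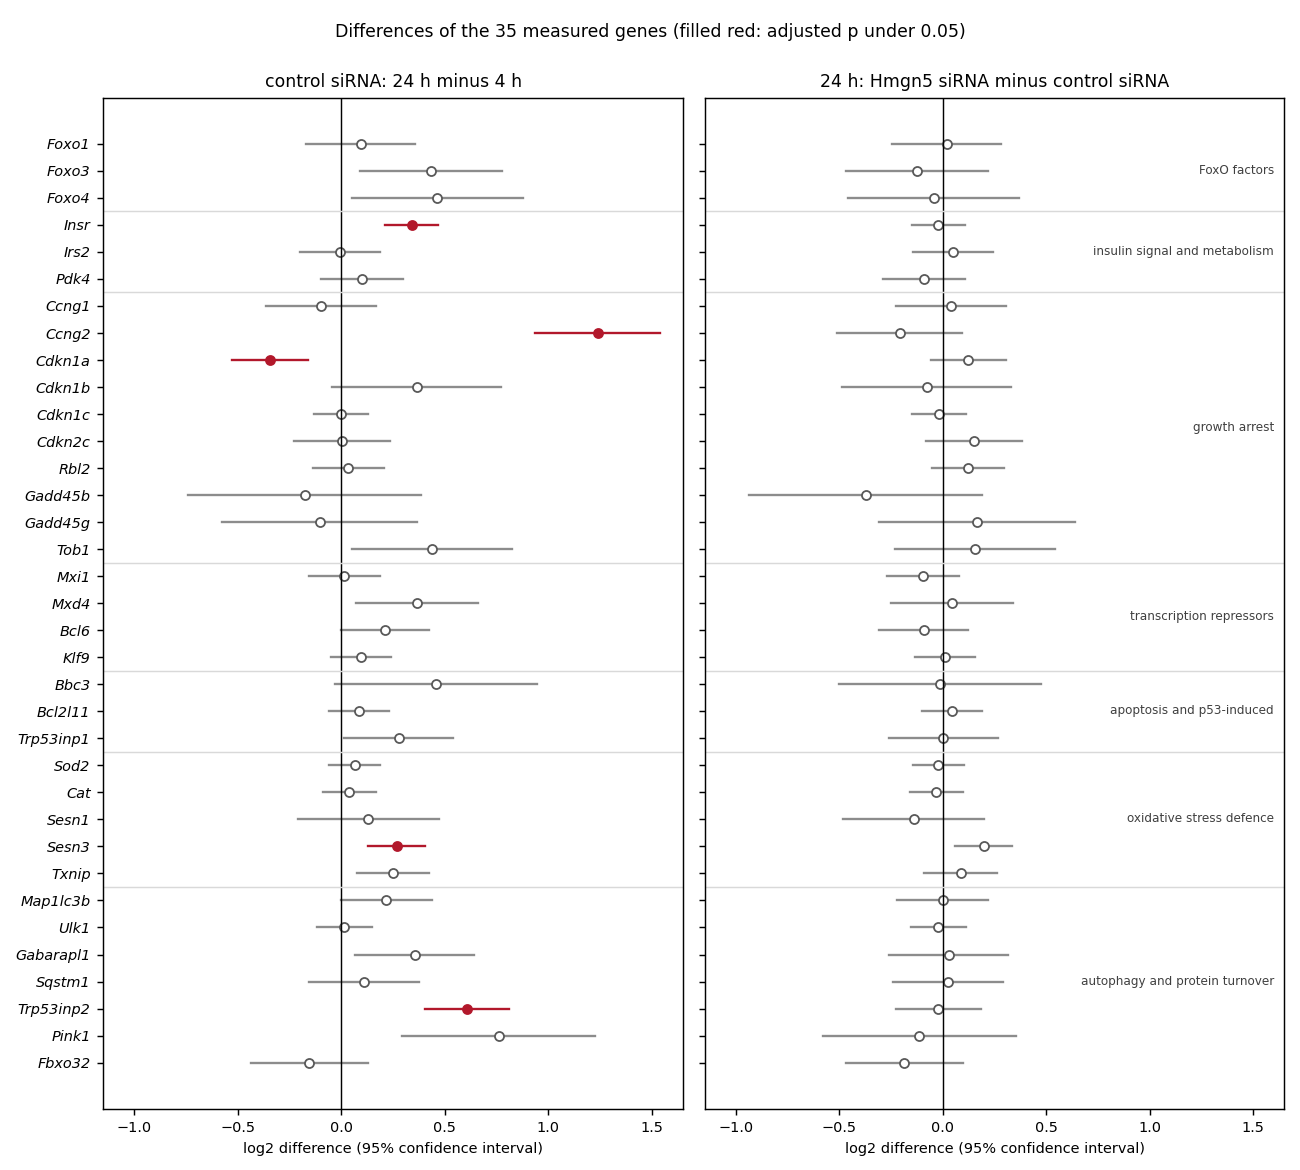
Log2 differences of the 35 measured genes (points) with 95% confidence intervals (lines), grouped by role from top to bottom. The left panel gives 24 h minus 4 h with control siRNA and the right panel Hmgn5 siRNA minus control siRNA at 24 h; filled red marks an adjusted p under 0.05, which 5 genes reached over time and none at knockdown.

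With Hmgn5 siRNA at 24 h, none of the 35 genes differed from control siRNA at 24 h (limma, adjusted p under 0.05). In all, 3 of 22180 genes passed, or 0.0135%. At an unadjusted p under 0.05 there was 1 of the 35 genes, Sesn3, against 5.25% of all genes, and the other settings of the limma fit that were run also called none of the 35. Differences ran from -0.37 (Gadd45b) to 0.20 (Sesn3), with 16 above 0, 19 below and a median of -0.01, against a median of 0.00 over all genes. The 95% confidence intervals of 33 genes lay within a 1.5-fold change in either direction, and those of Gadd45b and Gadd45g reached past it. These intervals use 1 estimate of spread per gene from all 3 groups, so the 4 h arrays also set their width. For Gadd45g the SD was 0.01 with Hmgn5 siRNA, 0.03 in 24 h controls and 0.55 at 4 h. For Gadd45b it was 0.46, 0.33 and 0.33 in the same groups. Every Hmgn5 siRNA array lay above every control 24 h array for 5 genes and below for 4, where the shares over all genes were 6.65% and 5.62%.

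Against control cells at 4 h, Hmgn5 siRNA cells at 24 h had 4 of the 35 genes higher and none lower, while 1.52% of all genes were higher and 1.04% lower. These 4 were the genes that rose over time in control cells: Ccng2, Trp53inp2, Insr and Sesn3. With single arrays left out, the Insr call was lost in 4 of 9 fits (adjusted p up to 0.0972) and the Trp53inp2 call in 2, those without Hmgn5 siRNA replicate 2 or 3 (adjusted p up to 0.062), while Ccng2 and Sesn3 kept theirs. In this comparison siRNA and time differ together, and it shares the 4 h arrays with the comparison over time. Without control 4 h replicate 2, 7 genes were higher and 1 lower, with Tob1, Txnip and Pink1 added to those 4 and Cdkn1a lower. The shares over all genes were then 2.01% and 1.53%.

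**Figure D2:**
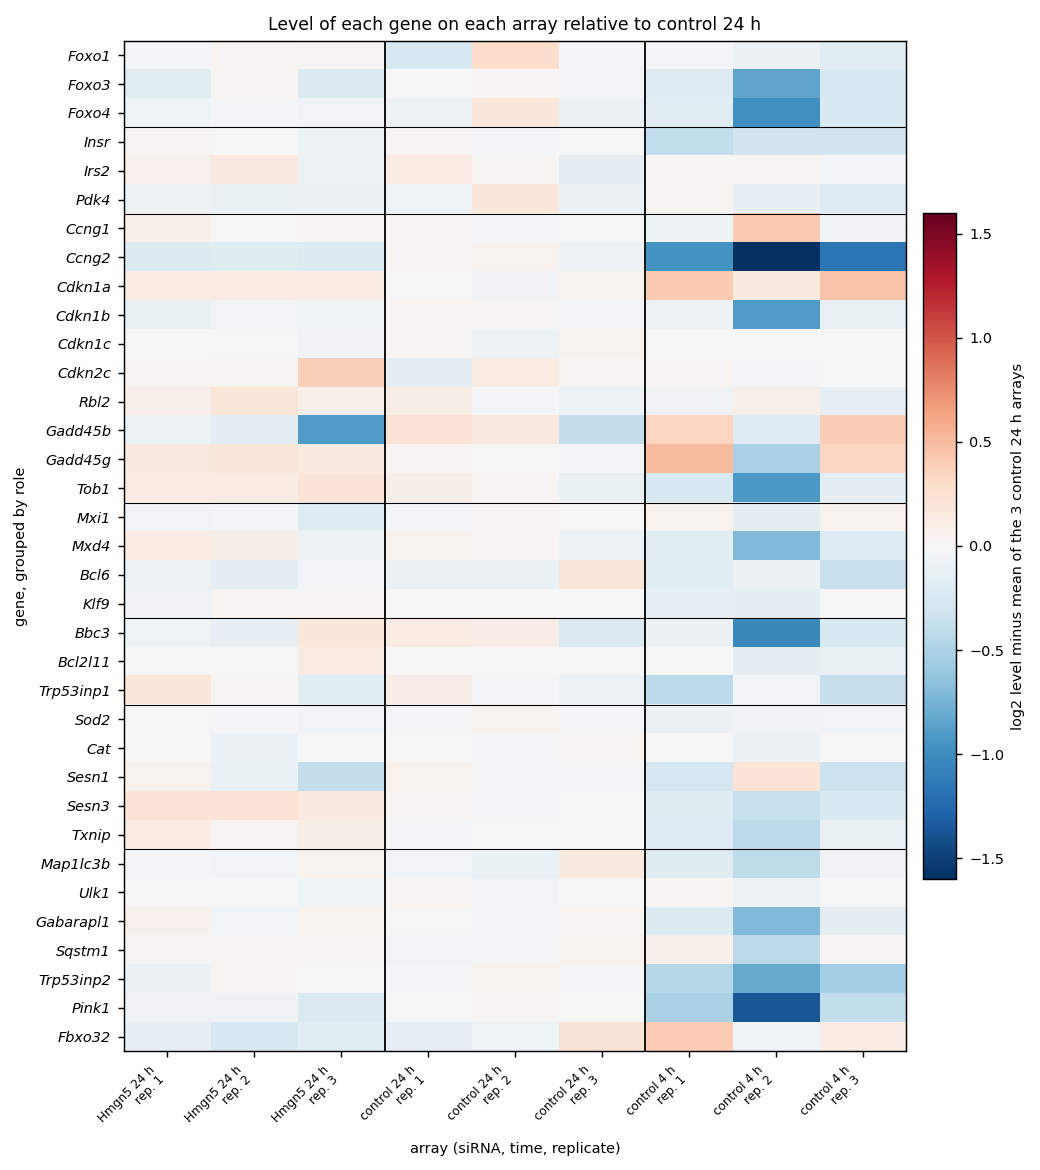
Colour gives the log2 level of each of the 35 genes (rows, grouped by role) on each of the 9 arrays (columns: Hmgn5 siRNA 24 h, control siRNA 24 h, control siRNA 4 h) minus the mean of the 3 control 24 h arrays. Ccng2 is the row farthest below 0 at 4 h, and control 4 h replicate 2 is the column with the most strongly lowered rows, among them Foxo4, Pink1 and Bbc3.

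The FoxO factors themselves were measured as Foxo1, Foxo3 and Foxo4, and none of the 3 passed in any comparison. Foxo1 stood at 5.32, 5.37 and 5.38 log2 units on the Hmgn5 siRNA arrays, 5.08, 5.62 and 5.32 on the control 24 h arrays and 5.32, 5.25 and 5.17 on the 4 h arrays. These groups overlapped, and the difference over time was 0.09 (adjusted p = 0.739). The mean signal of Foxo1 exceeded 44.2% of genes, a level that fibroblast markers also reached (up to 51.6%). Foxo3, the factor most studied for autophagy and cell death genes, stood at 7.56, 7.77 and 7.52 with Hmgn5 siRNA, 7.75, 7.76 and 7.72 in 24 h controls and 7.54, 6.89 and 7.50 at 4 h. All 24 h controls lay above the 4 h arrays, by 0.43 on average (95% interval 0.09 to 0.77, adjusted p = 0.166), and by 0.22 without control 4 h replicate 2 (adjusted p = 0.157). Foxo4 stood at 7.62, 7.66 and 7.64 with Hmgn5 siRNA, 7.60, 7.86 and 7.58 in 24 h controls and 7.52, 6.71 and 7.43 at 4 h. All 24 h controls again lay above the 4 h arrays. Its difference over time was 0.46 (95% interval 0.05 to 0.88, adjusted p = 0.221), and 0.21 without control 4 h replicate 2 (adjusted p = 0.249). In both genes that array was the lowest of the 9.

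Among the genes of the insulin signal, the receptor rose over time while its docking protein did not pass. Insr, the insulin receptor, stood at 9.18, 9.15 and 9.08 with Hmgn5 siRNA, 9.18, 9.14 and 9.15 in 24 h controls and 8.77, 8.84 and 8.85 at 4 h. The 6 arrays at 24 h all lay above the 3 at 4 h. The rise in control cells was 1.27-fold (log2 difference 0.34, SE 0.06, adjusted p = 0.0132), it was 0.35 without control 4 h replicate 2, and the call was lost without control 24 h replicate 1 (adjusted p = 0.0563). Between the siRNAs at 24 h the Insr difference was -0.02, with a 95% interval from -0.15 to 0.11. Irs2, which passes the receptor's signal to phosphoinositide 3-kinase, averaged 10.62 with Hmgn5 siRNA, 10.58 in 24 h controls and 10.58 at 4 h. Its difference over time was -0.01, with a 95% interval from -0.20 to 0.19. Pdk4, a kinase that turns mitochondria from glucose to fatty acids, averaged 4.05, 4.14 and 4.04 in the same groups, a low signal that exceeded 21.5% of genes.

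The growth arrest genes moved in both directions over time, with 1 of 10 rising, 1 falling and 8 not passing. The shares over all genes were 2.17% rising and 2.17% falling. Ccng2, an unconventional cyclin that slows the cell cycle and is a standard FoxO target, stood at 6.98, 7.00 and 6.97 with Hmgn5 siRNA, 7.22, 7.24 and 7.11 in 24 h controls and 6.24, 5.60 and 6.02 at 4 h. Neither 24 h group overlapped the 4 h arrays, and the Hmgn5 siRNA arrays all lay below the 24 h controls. The Ccng2 rise in control cells was 1.24 log2 units (SE 0.13, 95% interval 0.94 to 1.54, adjusted p = 0.00209). It was 1.06 without control 4 h replicate 2 (adjusted p = 0.000842), and it kept its call with any 1 of the 9 arrays left out. Between the siRNAs at 24 h the Ccng2 difference was -0.21 (95% interval -0.51 to 0.09, adjusted p = 0.984). Relative to 4 h controls, Hmgn5 siRNA cells had 2.04-fold more Ccng2 signal (adjusted p = 0.00718). Ccng1, the other cyclin of this pair and a p53 target, averaged 10.25 with Hmgn5 siRNA, 10.22 in 24 h controls and 10.31 at 4 h, and its difference over time was -0.10 (adjusted p = 0.73).

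Cdkn1a, which encodes the cyclin-dependent kinase inhibitor p21, was the gene that fell. It stood at 10.46 on all 3 Hmgn5 siRNA arrays, at 10.34, 10.28 and 10.40 in 24 h controls and at 10.76, 10.50 and 10.80 at 4 h. The groups did not overlap, with the Hmgn5 siRNA arrays between the 24 h and 4 h controls. The fall over time was 1.27-fold (log2 difference -0.34, SE 0.08, adjusted p = 0.0468). Without control 4 h replicate 2, the lowest of the 4 h arrays, it was -0.44 (adjusted p = 0.00522). Leaving out any other array lost the call (adjusted p up to 0.157), and so did centring each array on its median. The difference between the siRNAs at 24 h was 0.12 (95% interval -0.06 to 0.31, adjusted p = 0.984).

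**Figure D3:**
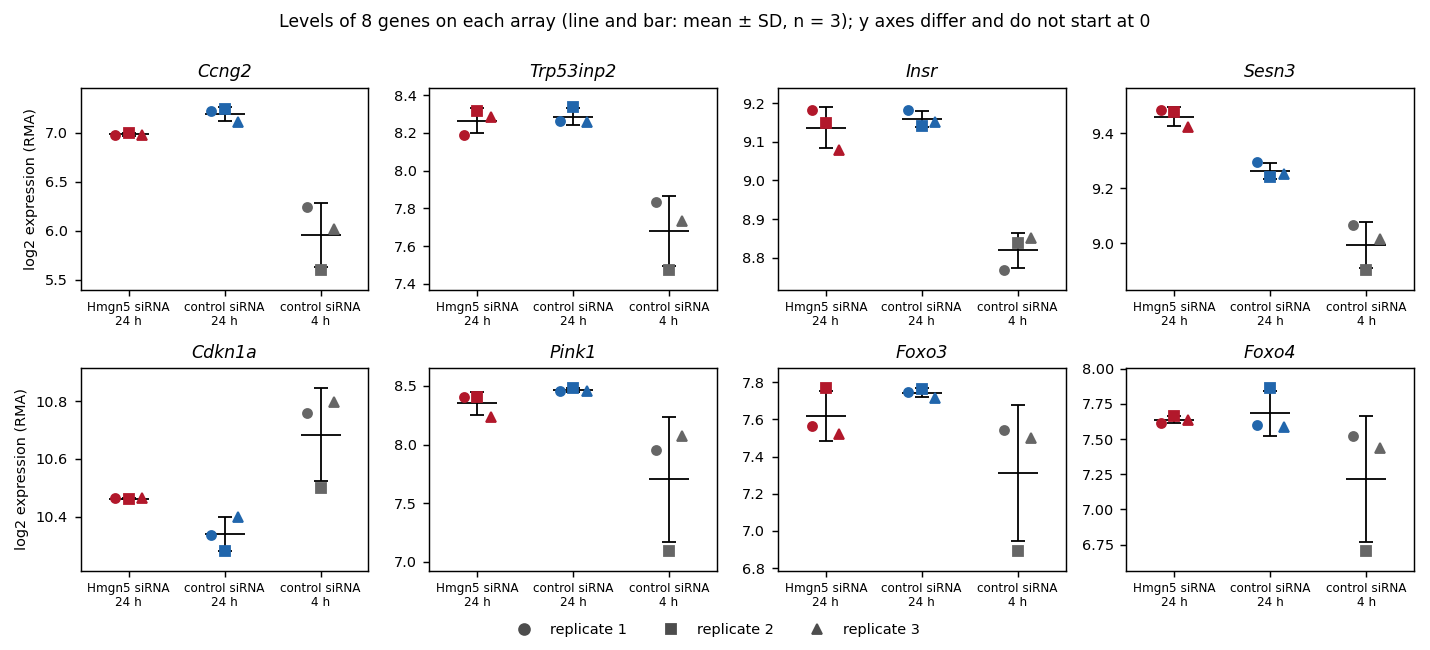
Log2 expression on each array for 8 of the genes (points, 3 arrays a group, one marker per replicate number), with mean and SD; the y axes differ between genes. Ccng2, Trp53inp2, Insr and Sesn3 are lower on all 4 h arrays than on all 24 h arrays, Cdkn1a is higher, and replicate 2 at 4 h lies well below the other 4 h arrays for Pink1, Foxo3 and Foxo4.

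The other kinase inhibitors and pocket proteins did not pass over time. Cdkn1b, the inhibitor p27 and a classical FoxO target, averaged 8.95 ± 0.04 with Hmgn5 siRNA, 9.03 ± 0.04 in 24 h controls and 8.66 ± 0.47 at 4 h (SD, n = 3). Its difference over time was 0.36 (adjusted p = 0.334), of which 0.10 was left without control 4 h replicate 2. Cdkn1c (p57), Cdkn2c (p18) and the retinoblastoma relative Rbl2 differed by 0.00, 0.00 and 0.03 over time and by -0.02, 0.15 and 0.12 between the siRNAs. The Cdkn1c signal exceeded 48.2% of genes, within the range of the fibroblast markers. Tob1, an antiproliferative protein that speeds mRNA decay, averaged 8.59 with Hmgn5 siRNA, 8.43 in 24 h controls and 7.99 at 4 h. It differed by 0.44 over time (adjusted p = 0.214) and by 0.59 between Hmgn5 siRNA cells at 24 h and controls at 4 h (adjusted p = 0.119). The second of these differences was 0.35 without control 4 h replicate 2 and passed (adjusted p = 0.048).

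The stress-induced Gadd45 genes, whose products slow the cycle and aid DNA repair, included the gene with the largest standard error over time, Gadd45b (0.25), and the one with the largest SD at 4 h, Gadd45g (0.55). Gadd45b stood at 8.14, 8.08 and 7.31 with Hmgn5 siRNA, 8.44, 8.37 and 7.84 in 24 h controls and 8.56, 8.01 and 8.60 at 4 h. Replicate 3 was the lowest array in both 24 h groups, and the difference between the siRNAs was -0.37 (95% interval -0.93 to 0.19, adjusted p = 0.984). In 18 alternative fits, including that with the replicate number as a block, the lowest adjusted p of this difference was 0.705. Gadd45g stood at 7.10, 7.12 and 7.10 with Hmgn5 siRNA, 6.98, 6.93 and 6.92 in 24 h controls and 7.44, 6.42 and 7.27 at 4 h. Its 4 h arrays straddled both 24 h groups, and its difference over time was -0.10 (adjusted p = 0.851). The difference was -0.42 without control 4 h replicate 2, a fall that passed (adjusted p = 0.0104).

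None of the 4 repressors of transcription on the list passed in any comparison. Mxd4 and Mxi1 encode partners of MAX that oppose MYC. Mxd4 averaged 8.78 with Hmgn5 siRNA, 8.73 in 24 h controls and 8.37 at 4 h, and its difference of 0.37 over time did not pass (95% interval 0.07 to 0.66, adjusted p = 0.171), although every 24 h control array lay above every 4 h array. Mxi1 differed by 0.01. Bcl6, a repressor of lymphocyte and stress genes, and Klf9, a Krüppel-like factor induced by glucocorticoids, differed by 0.21 and 0.10 over time. The Bcl6 signal exceeded 49.1% of genes, within the range of the fibroblast markers. Between the siRNAs these 4 genes differed by -0.09 to 0.04.

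Of the 3 cell death genes none passed with the arrays weighted equally. Bbc3, which encodes the BH3-only protein PUMA, averaged 7.58 with Hmgn5 siRNA, 7.60 in 24 h controls and 7.14 at 4 h, with single 4 h arrays at 7.50, 6.56 and 7.35. Its difference over time was 0.46 (adjusted p = 0.309), and 0.17 without control 4 h replicate 2. Bcl2l11, the BH3-only protein BIM, differed by 0.09 and read the same value on 6 of the 9 arrays. Trp53inp1, a p53-induced protein of the nucleus that also promotes autophagy, differed by 0.28 (adjusted p = 0.249), and by 0.40 without control 4 h replicate 2 (adjusted p = 0.0616). With limma's array weights Trp53inp1 passed over time (adjusted p = 0.04) and between Hmgn5 siRNA cells and 4 h controls (adjusted p = 0.0327).

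In the oxidative stress group, 1 of 5 genes rose over time and all 5 differences were above 0. The shares over all genes were 2.17% and 54.9%. Sesn3, a sestrin that restrains the growth kinase mTORC1 and is a FoxO target, stood at 9.48, 9.48 and 9.42 with Hmgn5 siRNA, 9.29, 9.24 and 9.25 in 24 h controls and 9.06, 8.90 and 9.02 at 4 h. No 2 of the 3 groups overlapped. The Sesn3 rise in control cells was 1.2-fold (log2 difference 0.27, SE 0.06, adjusted p = 0.0418), and it was lost when any of 7 single arrays was left out (adjusted p up to 0.137), namely all but control 4 h replicates 1 and 2. Between the siRNAs at 24 h Sesn3 differed by 0.20 (95% interval 0.06 to 0.34, unadjusted p = 0.00952, adjusted p = 0.806), the highest difference of the 35. Against controls at 4 h, Hmgn5 siRNA cells had 1.38-fold more (log2 difference 0.47, adjusted p = 0.00718), a call kept with any 1 array left out.

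Sesn1, the sestrin better known as a p53 target, averaged 7.97 with Hmgn5 siRNA, 8.11 in 24 h controls and 7.98 at 4 h, with a difference over time of 0.13 (adjusted p = 0.714). Txnip, which binds thioredoxin and limits glucose uptake, averaged 10.71, 10.62 and 10.37 in the same groups. All its 24 h arrays lay above the 4 h arrays, with differences of 0.25 over time (adjusted p = 0.121) and 0.33 between Hmgn5 siRNA cells and 4 h controls (adjusted p = 0.0595). The enzymes Sod2, the mitochondrial superoxide dismutase, and Cat, catalase, differed by 0.06 and 0.04 over time, with 95% intervals of -0.06 to 0.19 and -0.09 to 0.17.

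Among the 7 genes of autophagy and protein turnover, 1 rose over time, where 2.17% of all genes rose. Trp53inp2, which leaves the nucleus on starvation and binds LC3-family proteins on autophagosomes, stood at 8.19, 8.32 and 8.28 with Hmgn5 siRNA, 8.26, 8.34 and 8.26 in 24 h controls and 7.83, 7.47 and 7.74 at 4 h. All 24 h arrays lay above all 4 h arrays. Its rise in control cells was 1.52-fold (log2 difference 0.61, SE 0.09, adjusted p = 0.00823), it was 0.50 without control 4 h replicate 2, and it kept its call with any 1 array left out (adjusted p up to 0.0437). Between the siRNAs it differed by -0.02, with a 95% interval from -0.22 to 0.18.

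Pink1, the mitochondrial kinase that marks damaged mitochondria for mitophagy, had the second largest difference over time of the 35 genes. That difference did not pass with all 9 arrays weighted equally. It stood at 8.41, 8.40 and 8.24 with Hmgn5 siRNA, 8.45, 8.48 and 8.45 in 24 h controls and 7.95, 7.09 and 8.07 at 4 h. The 24 h arrays all lay above the 4 h arrays, whose SD was 0.53. The difference over time was 0.76 (95% interval 0.29 to 1.23, adjusted p = 0.0796). It was smaller without control 4 h replicate 2, at 0.45, and passed (adjusted p = 0.0114).

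The core autophagy genes did not pass. Gabarapl1, an LC3-family protein raised by FoxO factors in muscle, averaged 11.16 with Hmgn5 siRNA, 11.13 in 24 h controls and 10.78 at 4 h (difference over time 0.35, adjusted p = 0.173). Map1lc3b, the LC3 protein of autophagosome membranes, averaged 11.13, 11.13 and 10.92 in these groups (0.22, adjusted p = 0.286). Without control 4 h replicate 2 the differences were 0.18 and 0.12. Sqstm1, the cargo receptor p62, and Ulk1, the kinase that starts autophagy, differed by 0.11 and 0.02, and by -0.05 and -0.02 without that array. Fbxo32, the muscle ubiquitin ligase atrogin-1, stood at 7.44, 7.31 and 7.40 with Hmgn5 siRNA, 7.44, 7.50 and 7.77 in 24 h controls and 7.98, 7.50 and 7.69 at 4 h. Its Hmgn5 siRNA arrays lay below all control arrays of both times, but by a very small margin at 24 h. The highest of them read 7.439 and the lowest control 24 h array 7.441. Neither the difference of -0.19 from 24 h controls nor that of -0.34 from 4 h controls passed (adjusted p = 0.984 and 0.221).

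**Figure D4:**
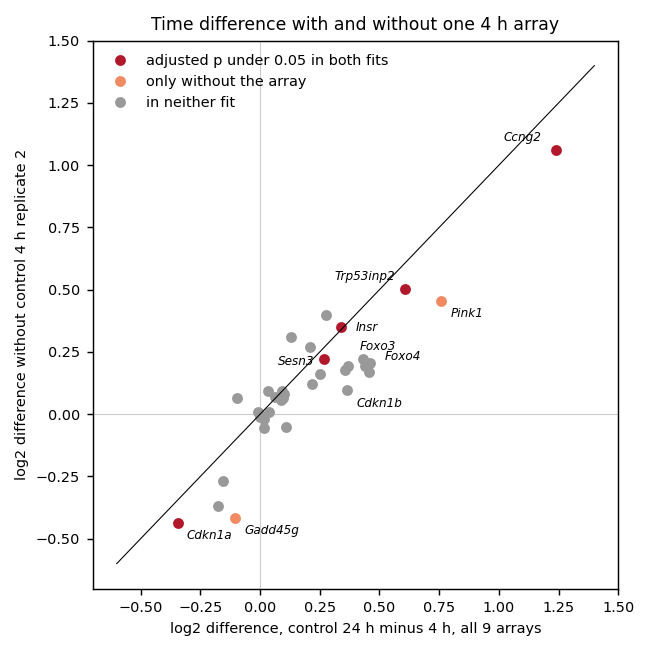
Log2 difference over time in control cells for the 35 genes, with all 9 arrays (x) and without control 4 h replicate 2 (y); the line marks equal values. Ccng2, Trp53inp2, Insr, Sesn3 and Cdkn1a passed in both fits, Pink1 and Gadd45g only without the array, and Foxo3, Foxo4 and Cdkn1b moved toward 0 without it.

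The spread between replicates was widest at 4 h. The median SD of the 35 genes was 0.05 on the Hmgn5 siRNA arrays, 0.05 on the control 24 h arrays and 0.18 on the 4 h arrays, where the 4 h median over all genes was 0.11. Between 4 h replicates 1 and 3 alone it was 0.05. Measured per array against the mean of the 24 h controls, the median of the autophagy and protein turnover genes was -0.19, -0.43 and -0.05 on 4 h replicates 1, 2 and 3. That of the FoxO factors was -0.16, -0.85 and -0.24.

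Promoter sequences from RefSeq (GRCm38.p6), read from 250 bases before to 50 bases after an annotated transcript start, were found for 31 of the 36 genes and searched for 4 motifs on both strands. A gene can have several annotated starts: these 31 genes had 40 windows, of which 24 began at the outermost start of the gene and 16 at a start further inside it. The FoxO core motif GTAAACA was in 6 of these 40 windows and in 3.65% of all 32851 windows. The 6 windows belonged to 6 genes, Mxi1, Klf9, Bbc3, Bcl2l11, Sesn1 and Txnip. None of these 6 genes passed over time with all 9 arrays, where 4.34% of all genes passed in either direction. Their motifs are shown in capitals (the letters may read as the reverse complement, TGTTTAC) with the bases around them, because they are the direct FoxO matches within the set.
Mxi1, chr19:53329453-53329481, plus strand: cgcgcggagaaGTAAACAaaccgcgcgcg
Klf9, chr19:23141115-23141143, plus strand: agggggagaaaGTAAACAgagttgaatca
Bbc3, chr7:16310083-16310111, plus strand: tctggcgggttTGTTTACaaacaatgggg
Bcl2l11, chr2:128125800-128125828, plus strand: aagacactaggGTAAACAcgccggggtgg
Sesn1, chr10:41810585-41810613, plus strand: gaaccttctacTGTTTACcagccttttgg
Txnip, chr3:96557825-96557853, plus strand: ttggaggcctgGTAAACAagggccaagta
The motif lay 231, 100, 167, 227 and 121 bases before the start of its window in Mxi1, Klf9, Bbc3, Bcl2l11 and Txnip, and began 23 bases into the transcript in Sesn1. For Mxi1 and Bbc3 that start was an internal one, 19.6 and 1.86 kb inside the gene's outermost start, and for the other 4 genes it was the outermost start.

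Of the genes that rose over time, Ccng2, Sesn3 and Trp53inp2 had a promoter window and Insr had none. The 250 bases before the start of each window are shown because they adjoin the starts of genes that carry the rise. For Ccng2 and Sesn3 that is the outermost start, and for Trp53inp2 one 45 bases further in, so that the last 45 bases of its stretch lie within the annotated gene. The related insulin response motif CAAAACA, in capitals, lay 16 bases before the start of Ccng2 and was otherwise found only in Irs2 among the 31 genes. It was in 2 of their 40 windows and in 6.28% of all windows. Neither motif was in the Sesn3 or Trp53inp2 windows.
Ccng2, chr5:93267323-93267572, plus strand: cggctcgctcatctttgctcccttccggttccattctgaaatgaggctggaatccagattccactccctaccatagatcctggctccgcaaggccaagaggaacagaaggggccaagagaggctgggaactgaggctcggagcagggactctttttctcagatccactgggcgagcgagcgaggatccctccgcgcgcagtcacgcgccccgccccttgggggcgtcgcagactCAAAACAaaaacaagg
Sesn3, chr9:14276051-14276300, plus strand: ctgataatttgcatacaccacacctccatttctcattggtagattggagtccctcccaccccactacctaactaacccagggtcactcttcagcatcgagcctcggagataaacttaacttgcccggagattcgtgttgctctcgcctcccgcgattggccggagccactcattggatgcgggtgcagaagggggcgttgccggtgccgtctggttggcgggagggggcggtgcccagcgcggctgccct
Trp53inp2, chr2:155381606-155381855, plus strand: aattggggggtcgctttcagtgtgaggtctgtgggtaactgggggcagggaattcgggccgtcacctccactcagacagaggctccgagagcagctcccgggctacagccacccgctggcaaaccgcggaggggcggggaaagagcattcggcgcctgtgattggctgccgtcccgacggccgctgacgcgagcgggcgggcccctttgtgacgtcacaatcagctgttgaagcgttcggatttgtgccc
A window without a motif says only that these letters are not in it, and FoxO factors also bind introns and distant enhancers.

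The p53 response element, taken as its consensus of 20 bases with at most 1 mismatch, was in 0.0883% of all windows. It was in 2 of the 40 windows of the 31 genes, in Cdkn1a and Ccng1. The Cdkn1a stretch below lies before the first of its 2 annotated starts, with the element in capitals 51 bases before that start, and is shown because Cdkn1a was the gene that fell. The second start lies 2.79 kb further inside the gene, and its window held no such element. The Ccng1 element began 195 bases before a start that lies 23 bases inside the outermost one.
Cdkn1a, chr17:29090729-29090978, plus strand: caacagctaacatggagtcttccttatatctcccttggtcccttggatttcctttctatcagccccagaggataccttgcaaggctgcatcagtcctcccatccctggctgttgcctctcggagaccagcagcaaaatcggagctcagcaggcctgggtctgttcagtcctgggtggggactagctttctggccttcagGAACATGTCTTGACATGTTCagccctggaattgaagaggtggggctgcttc
Ccng1, chr11:40755462-40755481, minus strand: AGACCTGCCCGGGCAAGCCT
The E-box CACGTG, bound by MAX with MYC or with its antagonists, was in 7 of the 40 windows and in 7.15% of all windows. The 7 belonged to 7 of the 31 genes (Irs2, Cdkn2c, Gadd45b, Gadd45g, Mxd4, Bcl6 and Bbc3).

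Lists of further genes of these pathways were set beside the 35 genes. For the counts over time below, the shares over all genes were 2.17% rising and 2.17% falling. Without control 4 h replicate 2 they were 2.64% and 2.94%. Of 25 measured genes of insulin, phosphoinositide 3-kinase, AKT and mTOR signalling, 4 rose over time and none fell, with a median of 0.02. They were Pik3r3 (0.73, adjusted p = 0.000511), a regulatory subunit of the kinase, Igf1r (0.33), the receptor related to Insr, Irs1 (0.55), the docking protein related to Irs2, and Inppl1 (0.57), a lipid phosphatase that damps the signal. Of 27 other FoxO targets 1 rose, the Krüppel-like factor gene Klf6 (0.42), and none fell. The median of this list was 0.02, with 15 of 27 differences above 0, against 0.02 and 54.9% over all genes. Of 25 other p53 targets 2 rose and 1 fell, with a median of -0.04. The antiproliferative gene Btg2 (0.79, adjusted p = 0.00358) and the epoxide hydrolase gene Ephx1 (0.63) rose, and Ei24 (-0.40), a membrane protein needed in autophagy, fell.

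Of 15 other kinase inhibitors, pocket proteins and TOB/BTG genes, Btg2 and the inhibitor gene Cdkn2d (0.43, adjusted p = 0.00852) rose and none fell. The median of this list was -0.001, with 7 of 15 differences above 0. In the MAX network, with 11 genes measured, Max itself fell (-0.42, adjusted p = 0.0102), 2 differences were above 0 and the median was -0.10. Of 35 other autophagy genes 16 had a difference above 0, and the median was -0.02. The cargo receptor gene Nbr1 (0.34) and the phosphoinositide-binding gene Wipi1 (0.29) rose, and Atg10 (-0.51), an enzyme of ATG12 conjugation, fell. Of 20 other antioxidant genes 9 had a difference above 0, and the median was -0.01. Of the 20, 3 fell and none rose: Hmox1 (-0.87, adjusted p = 0.00443), which breaks down haem, and both subunit genes of glutamate-cysteine ligase, Gclc (-0.48) and Gclm (-0.39). The calls of 6 of these 16 genes, Pik3r3, Btg2, Max, Cdkn2d, Gclc and Hmox1, were kept with any 1 array left out, and the other 10 were lost in at least 1 such fit. All 16 passed without control 4 h replicate 2, and 2 more autophagy genes then passed: Atg101 (0.38, adjusted p = 0.0179), a subunit of the ULK1 complex, was higher at 24 h and Map1lc3a (-0.42, adjusted p = 0.0371), an LC3 gene, lower.

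At knockdown no gene of these lists passed. The smallest p-values were those of the antioxidant genes Nqo1 (0.38, adjusted p = 0.456) and Hmox1 (0.34, adjusted p = 0.846), of Klf6 (0.34, adjusted p = 0.458) and of Dcxr (-0.26, adjusted p = 0.788), a p53 target. Sgk1, a kinase related to AKT that also phosphorylates FoxO3, differed by 0.51 (adjusted p = 0.846), and Btg2 by -0.25 (adjusted p = 0.926). Eif4ebp1 (0.18), the nutrient sensor gene Sesn2 (0.16), Mycn (0.25), Max (0.06), Lin54 (0.15), Tfe3 (0.11) and Atg10 (0.18) were the others with the smallest p in their lists.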

How the data were processed

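Total RNA of 9 samples was amplified to sense-strand cDNA and hybridised to 1 array each, per the labels' protocols. The authors deposited 1 log2 value for each probe set and array, made with oligo and RMA according to the submitters' processing notes, with no version given in the sources used here. RMA corrects background, quantile-normalises arrays and summarises probes, which hides a shift common to most genes. Values ran from 2.13 to 13.9, and no genome build of the array is given in the sources used here.

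Platform annotation gave 1 gene for 23521 of 41345 probe sets, several for 1814 and none for 16010. The 23521 covered 22180 genes, and 23328 of them matched the RefSeq table, with no symbol changed. Groups came from the sample titles. Tests used limma 3.58.1 in R 4.3.3 (lmFit, eBayes) on all 9 arrays and 22180 genes with group means as the model, 6 residual and 3.55 prior degrees of freedom, and Benjamini-Hochberg adjustment. No arrays held identical values. Steps were tested on simulated data. The alternatives tried are named in the closing section.

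The genes and lists were chosen with earlier results of these data known. All 36 genes are named, with every array's value for those that passed, the FoxO factors and the 2 highest and 2 lowest differences of each comparison. From each list, up to 4 genes that passed over time and the 2 smallest p at knockdown are named. The number of arrays limits the precision.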

Additional observations from a re-analysis of the deposited data

How the results depend on the processing

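Over time, the Ccng2 and Trp53inp2 rises passed in all 18 alternative fits. With all 9 arrays weighted equally they also passed at a minimum of 1.5-fold, or 0.585 log2 units. The Trp53inp2 rise was 0.605 there, but 0.531 with array weights and 0.502 without control 4 h replicate 2, both under that minimum. Of the 18 fits the Insr rise passed in 17, the Sesn3 rise in 8 and the Cdkn1a fall in 7, and none of these 3 reached 1.5-fold. None of the 5 differences changed sign. Of the 35 genes, 5 passed with all arrays weighted equally, 3 with only the 2 groups compared and 3 with median centring. With array weights 7 passed, Pink1 and Trp53inp1 being added to the rises. At a minimum of 1.5-fold 2 passed, and with 1 array left out 2 to 7 did. There were 2 without control 24 h replicate 1, and 3 without control 24 h replicate 2 or 3, control 4 h replicate 3 or any Hmgn5 siRNA array. Genes called in all numbered 963, but 280 with only the 2 groups, 480 without the empirical Bayes step, 1685 with array weights, 233 at 1.5-fold, and 310 to 1238 with 1 array left out. Median centring gave 477 rises and 309 falls where the deposited scale gave 481 and 482, with 30 of the 35 differences above 0. At knockdown none of the 35 passed in any alternative. Genes called in all numbered 3, but 1 with the replicate block, 5 with a trend and robust prior, 0 without the empirical Bayes step (1164 had an unadjusted p under 0.05 in limma's moderated test), 7 with array weights, and 0 to 2 with 1 array left out. Between Hmgn5 siRNA cells at 24 h and 4 h controls, 4 of the 35 passed, but 1 with only the 2 groups, 2 without the empirical Bayes step, 7 with array weights, 1 at 1.5-fold, and 2 to 8 with 1 array left out (2 without Hmgn5 siRNA replicate 2, 8 without control 4 h replicate 2). Genes called in all numbered 569, but 113, 255, 1226 and 145 under those 4 settings, and 165 to 784 with 1 array left out. Median centring gave 375 higher and 148 lower there, where the deposited scale gave 338 and 231. The cause of these shifts was not tested. The labels do not say what a shared replicate number marks. Same-numbered arrays correlated in their deviations from group means with r from 0.01 to 0.29, above 0.1 in 2 of 9 pairs, so the numbers were not taken to pair the samples. All 9 were above 0 and 14 of 18 differently numbered pairs below. Deviations from a group mean sum to 0 within the group, so the 2 counts are tied and the second adds no separate evidence. Every array correlated best with its own number between both 24 h groups but not in all group pairs, a hint from the data and not the design. With the number as a block, 4 of the 35 genes passed over time, Sesn3 being lost, and 3 in the third comparison, Insr being lost. Among genes that did not pass, 11 of 30 changed sign over time in at least 1 alternative and 14 of 35 did at knockdown.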

Other observations

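Gadd45a, a p53- and FoxO-induced member of the Gadd45 family, was measured only by a probe set that also carries E230016M11Rik. Its signal averaged 7.60 with Hmgn5 siRNA, 7.50 in 24 h controls and 7.67 at 4 h, and the 24 h control arrays read 7.62, 7.62 and 7.27. Probe sets shared by Txnip with Gm15441 and by Irs2 with 9530052E02Rik differed by 0.02 and 0.00 over time, where the probe sets of Txnip and Irs2 alone differed by 0.25 and -0.01. The second probe set of Foxo1 differed by 0.07 over time and that of Mxi1 by 0.15, where the brighter ones differed by 0.09 and 0.01.

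Equal values recurred on different arrays. Taken as equal within 1e-06 log2 units, at least 2 of the 9 arrays shared a value for 8 of the 35 genes and for 53.3% of all genes. Bcl2l11 had 4 distinct values over the 9 arrays and Cdkn1c had 5.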
